A study of Mus musculus with 12 samples.

Results

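Itpr2 knock-out (KO) and wild-type (WT) mouse embryonic fibroblasts were compared at late passage, which the labels define as 5 passages in culture. The late replicates are written WT1, WT2, WT3, KO1, KO2 and KO3, and levels are given in that order. The comparison rests on 6 of the 12 arrays of the series, the 3 late arrays of each genotype, chosen by their labels alone. It covers 19507 genes or unnamed transcripts. The WT late cultures carried no named genetic change, and the KO late cultures came from Itpr2 knock-out mice. Neither group received a further treatment. Both were grown from embryos at E12.5 in the same medium, and 100 ng of total RNA was labelled for each array. Per the design text, the fibroblasts of each genotype came from 3 independent animals. The mouse strain, the deleted part of the gene and the sex of the embryos are not given in the sources used here. The other 6 arrays, from the same genotypes at 3 passages (early), enter through the shared estimate of the spread and where the passages are set side by side.

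Itpr2 is the gene of a calcium channel in the endoplasmic reticulum, the inositol trisphosphate receptor of type 2. When hormones or growth factors activate phospholipase C, inositol trisphosphate opens this channel and its relatives, and calcium passes to the cytosol and, at contact sites, into mitochondria. The channel is known from work on cellular senescence, in which its loss lets cultured cells escape a stable arrest. Mouse embryonic fibroblasts are mixed primary mesenchymal cells that grow slowly and enter arrest within a few passages under atmospheric oxygen. They secrete the matrix, growth factors and cytokines that make up much of the account below.

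Levels are log2 of the background-corrected intensity relative to the 75th percentile of the same array, so 0 is a fairly bright gene. On the late arrays 61.0% to 67.5% of 39429 probes were above background and 0 were saturated. Replicates of a group correlated at 0.985 to 0.997. The median SD of a gene was 0.16 over the WT late and 0.0839 over the KO late arrays. The number of arrays, 3 against 3, limits the precision of every difference. Sex-linked transcripts did not follow the genotype. Xist, the RNA that coats the inactive X chromosome, was above background on WT1, KO1 and KO2, at -0.94, -1.09 and -0.17. Ddx3y, a Y-linked RNA helicase, was at -7.05, 0.82 and 0.95 in WT and at -0.14, -7.56 and 0.95 in KO. KO1 therefore carried both kinds of transcript. Of 8 sex-linked genes measured 0 were called between the genotypes. Replicates of a genotype differed so widely in some of them (standard error of 2.92 for Ddx3y) that the test could hardly call these.

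Markers of 12 cell types were read as the summed intensity of each list on the same log2 scale. All 18 fibroblast markers were above background on all 6 late arrays, and their sum overlapped between WT late (9.38 to 9.55) and KO late arrays (9.49 to 9.63). Macrophage markers summed to 7.05 to 7.75 on WT late and 6.01 to 6.91 on KO late arrays, with 22 of 23 measured members below 0 in the difference. Epithelial and keratinocyte markers summed to 4.05 to 4.22 and 3.33 to 3.58. Mesothelial markers summed to 0.42 to 0.85 and -1.28 to -1.13, and skeletal and cardiac muscle markers to 3.69 to 4.10 and 3.15 to 3.39. Markers of neurons, glia and neural crest summed to 4.41 to 4.47 and 4.21 to 4.35, with 6 of 13 measured members above 0 in the difference. In these 5 of the 12 lists the groups did not overlap, and the KO late arrays were lower. Over single genes the groups did not overlap in 39.3% of all tested, and 5 of 12 lists is near that share. A marker entered a sum if any 1 group had it above background on all 3 arrays. Upk3b of mesothelium and Des of muscle were above background on 3 WT late and 0 KO late arrays. Such members are lower in KO partly through this filter. Under normexp background correction the median differences of the epithelial, mesothelial, muscle and neural lists were 0.20, 0.42, 0.38 and 0.50, and that of macrophages stayed negative at -1.17. Above background on all 6 late arrays were 23 of 25 macrophage, 11 of 24 epithelial, 9 of 25 muscle, 12 of 27 neural, 8 of 18 endothelial and 3 of 9 mesothelial markers. On none of them were 2 macrophage markers, Cd163 and Ccr2, and 6 epithelial, 8 muscle, 11 neural, 7 endothelial and 2 mesothelial ones. The latter included Cdh1, Krt8 and Krt1 of epithelium, Myod1, Myog and Ckm of muscle, and Cdh5 and Tie1 of endothelium. In bulk RNA, fewer cells of a type and less RNA per cell cannot be told apart.

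The Itpr2 probe did not read lower in the KO-labelled cultures. Its level was 1.53, 1.74 and 1.56 in WT and 1.75, 1.83 and 1.72 in KO. The difference was 0.15 ± 0.15 (standard error, SE, n = 3 per group, limma adjusted p = 0.584). Where this probe lies relative to the deleted part is unknown, so it does not check the genotype. The related channel Itpr1 was higher in KO, at 1.24, 1.15 and 1.20 in WT and 1.66, 1.71 and 1.60 in KO, a difference of 0.46 ± 0.12 (adjusted p = 0.0424). Itpr3 was at 3.15, 2.96 and 2.87 in WT and 2.46, 2.28 and 2.65 in KO, with a difference of -0.53 ± 0.17 that missed the threshold (adjusted p = 0.0874). The KO arrays thus lay above the WT arrays for Itpr1 and below them for Itpr3, with no overlap in either. Itpr1 lost its call without any 1 of the 6 (adjusted p up to 0.137).

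Across all genes, 1527 of 19507 (7.83%) were called at an adjusted p under 0.05, with 674 (3.46%) higher and 853 (4.37%) lower in KO. The median difference of all genes was -0.0081, and 39.3% of them had groups that did not overlap. Of the called genes 260 were over 2-fold higher and 400 over 2-fold lower, and 15 and 20 were over 8-fold. The median size of a called difference was 0.89 against 0.18 over all genes. Among them 1342 were above background on all 6 late arrays. Of protein-coding genes 8.87% were called and of long non-coding RNAs 7.86%, the latter with 21 higher and 11 lower of 407. Over the autosomes and the X chromosome, the share ran from 6.99% on chromosome 9 to 12.4% on chromosomes 3 and X, and of 6 genes on the Y chromosome 0 were called.

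The number of calls depended on single arrays. It was 607 without WT3, 255 without KO1, 386 without KO2 and 507 without KO3. With KO1 and KO2, the KO arrays that carry Xist, both left out it was 1, in a fit that lends KO3, then alone in its group, the spread of the other groups. Quantile normalization turned the split of 674 higher and 853 lower into 997 and 788, and combined with normexp background correction into 998 and 789. A fit with the replicate number, which is also the slide, as a block gave 1408 calls. It ended the calls of 7 genes named in the text, Itpr1, Lce1i, Hey1, Lef1, Atf6, Herpud1 and Cdkn2c (adjusted p up to 0.0673). Normexp background correction with the 75th percentile fitted a background far below 0 on 5 of the 12 arrays. It moved the median of all genes from -0.0081 to 0.14, left 15 calls and turned the sign of 17 of the genes named in the text, Ppp2r2c, Serpina9, Trpc6, Fgf1, Fgf2, Lef1, Ntn4, Ret, Lamb3, Des, Myocd, Tnni1, Aldh1a3, Bik, Atf6, Gsta3 and Bhlhe41.

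**Figure D1:**
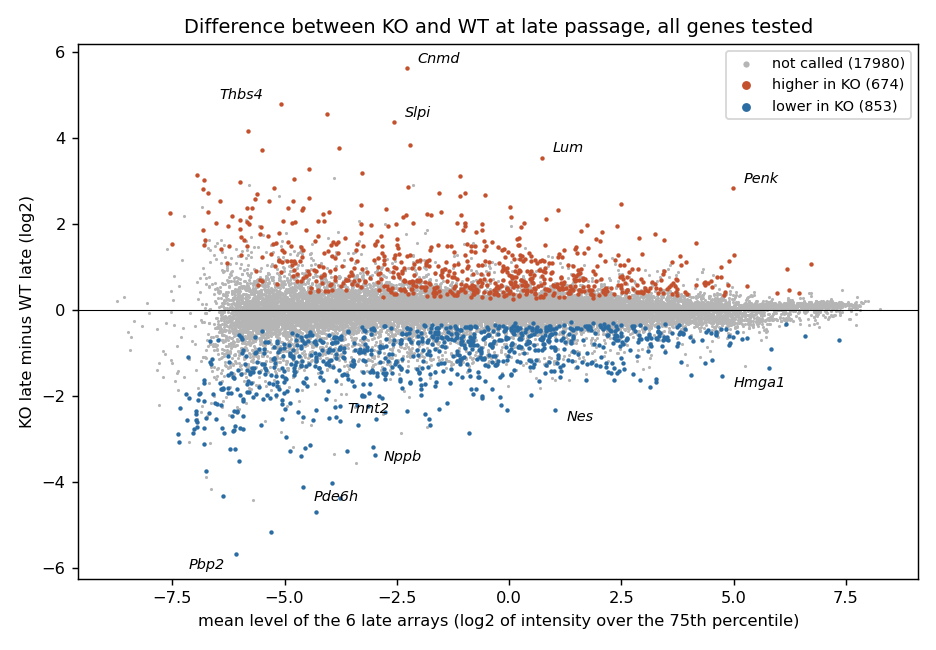
Each point is 1 of 19507 genes, with the mean level of the 6 late arrays on the horizontal axis and the KO minus WT difference on the vertical axis, both in log2. Called genes, 674 higher (red) and 853 lower (blue), lie at all levels, and the 11 named genes include bright ones such as Penk and Hmga1 as well as dim ones such as Pbp2.

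Among genes above background on all 6 late arrays, the 12 largest increases in KO included secreted proteins, matrix proteins and cell surface receptors. Slpi, a secreted inhibitor of leukocyte proteases, was at -5.66, -4.0 and -4.55 in WT and -0.38, -0.29 and -0.44 in KO. That is 20.7-fold higher in KO (4.37 ± 0.42, adjusted p = 0.00123), and the lowest KO array lay far above the highest WT array. Penk, the precursor of the enkephalin opioid peptides, was the brightest of these genes at 3.60, 4.08 and 2.99 in WT and 6.44, 6.0 and 6.76 in KO. It was 7.17-fold higher (2.84 ± 0.41, adjusted p = 0.00528). Scube2, a secreted protein that helps release hedgehog ligands, was at -2.66, -2.11 and -2.47 in WT and 0.25, 0.14 and 0.32 in KO, 6.28-fold higher (adjusted p = 0.00198), with both of its probes in this direction. For all 3 genes the gap between the groups was wider than the range within either group.

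Receptors were among the same leading genes. Fzd9, a Frizzled receptor for Wnt ligands, was at -3.28, -2.67 and -2.83 in WT and -0.25, -0.16 and -0.16 in KO, 6.65-fold higher in KO (2.73 ± 0.39, adjusted p = 0.00516). Agtr2, the type 2 angiotensin receptor, was at -4.04, -2.03 and -1.92 in WT and 0.51, 0.80 and 0.069 in KO, 8.70-fold higher (adjusted p = 0.0123). WT1 was the lowest Agtr2 array, and the groups did not overlap. Scara5, a scavenger receptor that binds ferritin, differed by 2.87 ± 0.61 (adjusted p = 0.0223) and Dpt, the dermal matrix protein dermatopontin, by 3.84 ± 0.79 (adjusted p = 0.0205). Agtr2 lost its call without KO1 or KO2 (adjusted p up to 0.0583), Scara5 without WT3, KO1 or KO2 (adjusted p up to 0.0863) and Dpt without WT1, WT3, KO1 or KO2 (adjusted p up to 0.0813).

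The remaining leading increases were in cartilage and matrix genes, complement and an imprinted gene. Lum, the collagen-binding proteoglycan lumican, was at -1.40, -0.47 and -1.27 in WT and 2.49, 2.60 and 2.43 in KO (3.55 ± 0.48, adjusted p = 0.00433). Col9a1, a chain of the collagen that decorates cartilage fibrils, was at -5.95, -5.53 and -5.57 in WT and -1.92, -2.11 and -1.69 in KO (3.78 ± 0.62, adjusted p = 0.00908). Hapln1, which ties hyaluronan to large proteoglycans, was at -4.49, -4.87 and -5.23 in WT and -1.62, -1.49 and -1.88 in KO (3.20 ± 0.40, adjusted p = 0.00323). In these genes the gap between the groups was wider than the range within either group. C4b, a component of the classical complement pathway, differed by 2.67 ± 0.43 (adjusted p = 0.00867), and Zim1, an imprinted zinc finger gene, by 2.73 ± 0.44 (adjusted p = 0.00862).

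The largest decreases above background were in a hormone, a sugar transferase, a lipid receptor and genes of the skin barrier. Nppb, the precursor of brain natriuretic peptide, was at -1.39, -1.79 and -1.14 in WT and -4.72, -4.63 and -4.54 in KO, 9.12-fold lower in KO (-3.19 ± 0.36, adjusted p = 0.00211). Galnt18, of the enzyme family that starts mucin-type glycosylation, was at -0.26, 0.75 and 1.14 in WT and -2.29, -2.05 and -2.60 in KO, 7.25-fold lower (adjusted p = 0.00198). Cd36, a receptor for fatty acids and thrombospondin, was at -2.48, -1.96 and -1.64 in WT and -4.44, -4.37 and -5.30 in KO, 6.39-fold lower (adjusted p = 0.00442). In each of them every KO array lay below every WT array. Cd36 is also made by macrophages, whose markers summed lower in KO as given above, and their part in the result was not tested.

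Among the other leading decreases, Xlr3b, an imprinted gene of the X chromosome, differed by -2.55 ± 0.29 (adjusted p = 0.00263), with both of its probes lower. Tnnt2, the cardiac form of troponin T, was at -2.80, -2.32 and -2.70 in WT and -5.14, -4.97 and -5.18 in KO (-2.49 ± 0.18, adjusted p = 0.000554), with the KO arrays close together. Stmn2, a microtubule regulator of neurons, differed by -2.55 ± 0.49 (adjusted p = 0.0156), and Arhgap36, an activator of hedgehog signalling, by -2.43 ± 0.44 (adjusted p = 0.0129). The neural markers, of which Stmn2 is 1, summed lower in KO as given above. Of 13 measured, 2 were called higher and 1 lower, which was Stmn2 itself, and 6 differences were above 0 and 7 below. Their part in the result was not tested. Stmn2 lost its call without WT3, KO1, KO2 or KO3 (adjusted p up to 0.0669) and Arhgap36 without KO1 or KO2 (adjusted p up to 0.0586).

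Several genes of the cornified envelope, the cross-linked protein shell of skin keratinocytes, were called lower in KO late cultures. Crct1 was at -0.66, -0.44 and -0.15 in WT and -3.04, -3.40 and -2.83 in KO (-2.67 ± 0.47, adjusted p = 0.0123), and Lor, loricrin, at -2.79, -3.69 and -2.76 in WT and -5.51, -5.36 and -6.07 in KO (-2.57 ± 0.47, adjusted p = 0.0139). Lce3c differed by -2.59 ± 0.59 (adjusted p = 0.0286), Sprr1a by -2.49 ± 0.53 (adjusted p = 0.0228) and Klk8, a secreted protease of the skin, by -2.51 ± 0.44 (adjusted p = 0.0119). The groups did not overlap in any of these 5 genes. Kprp, a proline-rich protein of keratinocytes, was above background on 3 WT late and 0 KO late arrays and was at least 5.25-fold lower (adjusted p = 0.00467). Lce1i was at least 14.7-fold lower (adjusted p = 0.0315), with WT levels of -5.65, -2.24 and -0.28, far apart from each other. Crct1 lost its call without KO1 or KO2 (adjusted p up to 0.0547), Lor without WT3, KO1 or KO3 (adjusted p up to 0.0575) and Lce3c without any 1 of the 6 (adjusted p up to 0.0964). Sprr1a lost its call without WT3, KO1, KO2 or KO3 (adjusted p up to 0.0842), Klk8 without KO1 (adjusted p = 0.0517) and Lce1i without WT2, WT3, KO1, KO2 or KO3 (adjusted p up to 0.104).

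All of these except Klk8 lie on chromosome 3. Of 17 measured genes there with names of the Lce or Sprr families, or Crct1, Lor and Kprp, a set chosen after the values were seen, 9 were called lower and 0 higher. That is 52.9% against 11.4% of the other 701 genes of that chromosome. Above background on all 6 late arrays were 10 of the 17, against 660 of the other 701. The median of the 17 was -2.49, and it includes signals not above background. The 9 calls became 5 without WT2, 3 without WT3 or KO3, 2 without KO2 and 1 without KO1. Normexp background correction left 0 calls among them and a median of -0.093. The differences of Kprp and Lce1i, given above as bounds, were then -0.00082 and -1.12. Epithelial markers, which include Lor itself, also summed lower in KO, at 3.33 to 3.58 against 4.05 to 4.22. Of 13 measured 0 were called higher and 3 lower, Lor among these, and their part in the result was not tested. Of 24 epithelial markers 11 were above background on all 6 late arrays, Krt14, Krt18, Trp63 and also Lor among them, and 6 on none, Cdh1, Krt8 and Krt1 among them. Among epithelial markers the 3 calls became 1 without KO2 and 0 without KO1.

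**Figure D2:**
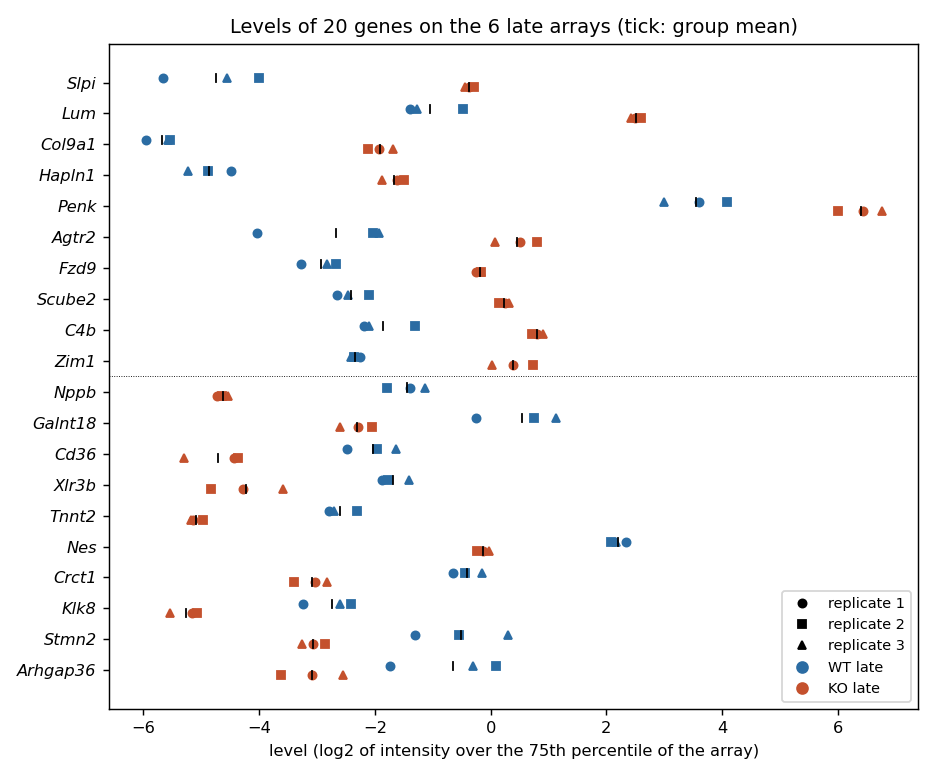
Levels of 20 genes (log2 of intensity over the 75th percentile) on the 3 WT late (blue) and 3 KO late (red) arrays, with marker shapes for replicates and a tick at each group mean. The 10 genes above the dotted line are higher and the 10 below it lower in KO, and the groups do not overlap in any of them, although WT1 stands low in Slpi and Agtr2.

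Several genes were above background in only 1 genotype, and their folds are lower bounds against the dimmest signal called above background. These bounds hold for the main background correction alone. Under normexp background correction the log2 differences were 1.67 for Thbs4 and 1.42 for Epyc. Among those detected only on KO arrays, Thbs4, thrombospondin 4 of tendon and muscle matrix, was at least 14.9-fold higher (adjusted p = 0.00867), with KO levels of -2.61, -3.44 and -1.98. Epyc encodes epiphycan, a small proteoglycan of growth plates. Its KO levels were -3.68, -3.61 and -3.89, a rise by a factor of at least 7.48 (adjusted p = 0.00433). Axin2, a feedback inhibitor and common readout of Wnt signalling, was at least 2.77-fold higher (adjusted p = 0.00323). Wfdc12, a whey acidic protein family member, was at least 4.78-fold higher (adjusted p = 0.0242), and Sntg2, a syntrophin, at least 3.23-fold higher (adjusted p = 0.0258). Wfdc12 lost its call without WT1, WT3, KO1, KO2 or KO3 (adjusted p up to 0.0934) and Sntg2 without WT1, WT3, KO1, KO2 or KO3 (adjusted p up to 0.102).

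In the opposite direction, Pde6h, an inhibitory subunit of the phosphodiesterase of cone photoreceptors, was at -2.30, -3.02 and -2.30 in WT and -6.65, -6.64 and -6.67 in KO. It was at least 16.5-fold lower in KO (adjusted p = 0.00289), where 0 of 3 arrays were above background. Pbp2 belongs to the phosphatidylethanolamine-binding proteins. With WT levels of -3.64, -3.44 and -2.62, it was lower by a factor of at least 10.3 (adjusted p = 0.000569). Ppp2r2c, a regulatory subunit of protein phosphatase 2A, was at least 5.29-fold lower (adjusted p = 0.00467). Under normexp background correction the log2 differences were only -0.68 for Pde6h and -0.59 for Pbp2, and 0.15 for Ppp2r2c. Over all called genes, 64 were detected only on WT arrays and 21 only on KO arrays in this way. Of all probes, 63.3% to 67.5% were above background on WT late arrays and 61.0% to 63.0% on KO late arrays.

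The 8 genes with the smallest p were led by genes whose replicates lay close together. Chrdl2, a secreted antagonist of bone morphogenetic proteins, was at -8.55, -8.42 and -7.72 in WT and -5.38, -5.39 and -5.45 in KO (at least 2.34-fold higher in KO, adjusted p = 0.000527). Nes, the intermediate filament protein nestin, was at 2.34, 2.07 and 2.17 in WT and -0.13, -0.24 and -0.025 in KO, 5.02-fold lower (-2.33 ± 0.19, adjusted p = 0.000569). Fxyd6, a regulator of the sodium pump, was at -0.57, -0.79 and -0.78 in WT and 1.23, 1.35 and 1.11 in KO, 3.84-fold higher (1.94 ± 0.16, adjusted p = 0.000569). The gap between the groups exceeded the range within either group in all 3.

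Serpina9, of the serine protease inhibitor family, was at -4.08, -4.28 and -4.09 in WT and -5.72, -5.86 and -5.70 in KO (-1.61 ± 0.13, adjusted p = 0.000569). Dera, an enzyme that breaks down deoxyribose phosphate, was at -1.51, -1.55 and -1.48 in WT and -0.36, -0.28 and -0.47 in KO (1.14 ± 0.088, adjusted p = 0.000569). Serpina9 was lower and Dera higher on every KO array. Dera, Pbp2 and Itpr2 all lie on chromosome 6. Nr4a1, an orphan nuclear receptor induced within minutes of stimulation, is given with the immediate-early genes below, and Tnnt2 and Pbp2, given above, complete the 8.

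Genes were then read in 79 lists, in which the share of called members stands against 7.83% of all genes and the median against -0.0081. Members within a list are not independent of each other.

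Of 14 fibroblast growth factors and their tyrosine kinase receptors 3 were higher and 2 lower. Fgf1 was at -4.66, -5.07 and -3.75 in WT and -7.66, -7.67 and -7.87 in KO and was lower by a factor of at least 4.31 (adjusted p = 0.00123), since 0 KO late arrays were above background. Fgf21, an endocrine member of the family and a target of the amino acid response, was at -2.79, -4.34 and -4.61 in WT and -1.64, -1.32 and -1.74 in KO, 5.09-fold higher (2.35 ± 0.43, adjusted p = 0.0136). Fgf2 differed by -1.19 ± 0.22 (adjusted p = 0.0134). The paracrine factors Fgf1 and Fgf2 were thus lower and the endocrine one higher. Fgf21 lost its call without KO1 or KO2 (adjusted p up to 0.0586) and Fgf2 without KO1 or KO2 (adjusted p up to 0.0561). Among fibroblast growth factors and receptors the 5 calls became 3 without WT3 and 1 without KO1 or KO2.

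Igfbp5, an abundant binding protein that holds insulin-like growth factors in the matrix, was at -0.24, 0.059 and -0.011 in WT and 2.31, 2.82 and 1.63 in KO, 4.99-fold higher in KO (2.32 ± 0.32, adjusted p = 0.00449). In its list 2 of 16 were higher and 1 lower. Among bone morphogenetic protein genes 2 of 31 were higher and 4 lower. Grem1, the antagonist gremlin, was at 4.32, 3.86 and 3.95 in WT and 2.27, 2.31 and 2.12 in KO, 3.49-fold lower (-1.80 ± 0.32, adjusted p = 0.0123). Its KO arrays lay below every WT array. Acvr2a, an activin receptor, was higher by 0.98 ± 0.13 (adjusted p = 0.00433). Grem1 lost its call without KO1 (adjusted p = 0.0547). Among insulin-like growth factors and binding proteins the 3 calls became 1 without WT3, KO1 or KO2. Among bone morphogenetic protein genes the 6 calls became 3 without KO2, 2 without WT3 or KO3 and 1 without KO1.

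Angiogenic and platelet-derived growth factor genes included 1 of 21 higher and 5 lower. Flt1, a receptor for vascular endothelial growth factor, was at -0.66, 0.16 and -0.035 in WT and -1.60, -1.74 and -1.42 in KO, 2.65-fold lower (-1.41 ± 0.23, adjusted p = 0.00957). Neurotrophic and axon guidance genes were called in 31.6% of members, with 6 of 38 higher and 6 lower. Ntn4, a netrin of basement membranes, was at least 3.96-fold lower (adjusted p = 0.00380). Gfra1, the receptor for glial cell line-derived neurotrophic factor, was at -5.58, -5.58 and -6.16 in WT and -3.42, -3.41 and -3.46 in KO (adjusted p = 0.00264), above background on 2 of 3 WT arrays. Ret, the kinase that Gfra1 presents its ligand to, was at least 1.74-fold lower (adjusted p = 0.0154), above background on 2 of 3 WT and 0 KO arrays. Ret lost its call without WT3, KO1 or KO2 (adjusted p up to 0.0668). Among angiogenic and platelet-derived growth factors the 6 calls became 3 without KO3, 2 without WT3 or KO2 and 1 without KO1. Among neurotrophic and axon guidance factors the 12 calls became 5 without KO3, 3 without WT3 and 2 without KO1 or KO2.

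In the hedgehog and Notch list 4 of 19 were higher and 3 lower, and the largest increases were in hedgehog co-receptors. Boc was at -0.31, -0.059 and -0.30 in WT and 1.14, 1.25 and 0.96 in KO, 2.53-fold higher in KO (1.34 ± 0.19, adjusted p = 0.00465), and Gas1 was at 0.31, 0.85 and 0.41 in WT and 1.93, 1.86 and 1.97 in KO, 2.64-fold higher (adjusted p = 0.0103). The Notch targets were lower, Hes1 (-1.05 ± 0.22, adjusted p = 0.0226) and Hey1 (-1.18 ± 0.30, adjusted p = 0.0412). Gas1 lost its call without KO1 (adjusted p = 0.0506), Hes1 without KO1, KO2 or KO3 (adjusted p up to 0.0801) and Hey1 without WT2, WT3, KO1, KO2 or KO3 (adjusted p up to 0.127). Among hedgehog and Notch genes the 7 calls became 4 without WT3, 3 without KO2, 2 without KO3 and 1 without KO1.

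Receptors of the angiotensin system were higher in KO in both of their types. Agtr1a, the type 1 receptor that drives contraction and growth, was at -2.16, -2.38 and -1.99 in WT and -0.085, 0.082 and -0.42 in KO, 4.10-fold higher (2.03 ± 0.25, adjusted p = 0.00291), beside Agtr2 above. Across 39 G protein-coupled receptors 4 were higher and 8 lower, and the median of -0.24 turned to 0.39 under normexp background correction with the 75th percentile. P2ry14, a receptor for nucleotide sugars, was lower (-1.97 ± 0.51, adjusted p = 0.0426). P2ry14 lost its call without WT1, WT3, KO1, KO2 or KO3 (adjusted p up to 0.130). Among G protein-coupled receptors the 12 calls became 6 without WT1, 3 without WT3 or KO3, 2 without KO1 and 1 without KO2.

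Of 22 interleukins and their receptors 5 were higher and 0 lower (3 at an unadjusted p under 0.05). The median of the list was 0.28, with 0.52, 0.36 and 0.15 on slides 1, 2 and 3. Il6st, the signalling subunit gp130 shared by the interleukin 6 family, was at 3.30, 3.41 and 2.86 in WT and 4.48, 4.55 and 4.30 in KO, 2.39-fold higher (1.26 ± 0.26, adjusted p = 0.0196). Il13ra1 was higher by 0.97 ± 0.16 (adjusted p = 0.0100). Il6st lost its call without WT3, KO1, KO2 or KO3 (adjusted p up to 0.0795) and Il13ra1 without KO1 (adjusted p = 0.05002). Among interleukins and their receptors the 5 calls became 2 without WT3, 1 without KO2 or KO3 and 0 without KO1.

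Among chemokines and colony stimulating factors 1 of 17 was higher and 3 were lower. Ccl2, which recruits monocytes, was at 2.99, 3.05 and 2.99 in WT and 1.61, 1.53 and 1.80 in KO, 2.57-fold lower (adjusted p = 0.000837). Csf1, the growth factor of macrophages, was at 2.85, 2.85 and 3.19 in WT and 2.26, 2.22 and 2.37 in KO, 1.61-fold lower (adjusted p = 0.00862), with all 3 of its probes in this direction. Cxcl1, which recruits neutrophils, was at -2.16, -0.15 and -1.21 in WT and 1.30, 1.59 and 0.81 in KO, 5.31-fold higher (adjusted p = 0.0320). Cxcl1 was thus called in the opposite direction to Ccl2 and Csf1. In the TNF family 0 of 20 were higher (2 at an unadjusted p under 0.05) and 3 lower. Tnfsf18, a ligand that costimulates T cells, was at -2.28, -1.53 and -2.01 in WT and -6.71, -6.88 and -6.34 in KO (adjusted p = 0.0100), above background on 1 of 3 KO arrays. Cxcl1 lost its call without WT1, WT3, KO1, KO2 or KO3 (adjusted p up to 0.110). Among chemokines and colony stimulating factors the 4 calls became 2 without WT3, KO1, KO2 or KO3. Among TNF family genes the 3 calls became 1 without WT3, KO1 or KO3.

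Cartilage, proteoglycan, tendon and collagen genes were called more often higher than lower. In the cartilage list, 52.6% of 19 measured members were called, 10 higher and 0 lower (0 at an unadjusted p under 0.05), and 18 had a positive difference. Over its members the median was 1.16, with 0.73, 1.28 and 1.30 on slides 1, 2 and 3. Cnmd, chondromodulin, was at -6.96, -3.15 and -5.18 in WT and 0.49, 0.45 and 0.65 in KO (5.63 ± 1.19, adjusted p = 0.0223), above background on 2 of 3 WT arrays. Its WT values lay far apart and its KO values close together. Ucma, a matrix protein of upper growth plate cartilage, was higher by 2.17 ± 0.53 (adjusted p = 0.0353) and above background on 1 of 3 WT arrays, and Col9a2 was higher by 1.51 ± 0.31 (adjusted p = 0.0194). The list was drawn up with the rise of cartilage genes in these arrays known. Cnmd lost its call without WT1, WT3, KO1, KO2 or KO3 (adjusted p up to 0.0817), Ucma without WT1, WT2, KO1, KO2 or KO3 (adjusted p up to 0.115) and Col9a2 without WT3, KO1, KO2 or KO3 (adjusted p up to 0.0771). Among cartilage genes the 10 calls became 5 without WT3 and 4 without KO1, KO2 or KO3.

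Small leucine-rich proteoglycans, which bind collagen fibrils and growth factors, had 6 of 14 higher and 0 lower (1 at an unadjusted p under 0.05). Their median difference was 0.95, with 1.11, 0.73 and 0.75 on slides 1, 2 and 3. Beside Lum and Epyc, Podn, podocan, was at 0.78, 0.88 and 0.39 in WT and 2.54, 2.88 and 2.16 in KO, 3.59-fold higher (1.84 ± 0.42, adjusted p = 0.0282). Tendon and ligament genes had 6 of 14 higher and 1 lower. The median of the list was 0.64, with 0.68, 0.85 and 0.54 on slides 1, 2 and 3. Mkx, the tendon transcription factor mohawk, was at -2.35, -1.71 and -1.69 in WT and -0.56, -0.58 and -0.53 in KO, 2.57-fold higher (1.36 ± 0.22, adjusted p = 0.00957), and Clec11a, a secreted growth factor of bone-forming cells, was higher by 1.87 ± 0.30 (adjusted p = 0.00862). The KO arrays of Mkx lay close together, above every WT array. Podn lost its call without any 1 of the 6 (adjusted p up to 0.0988). Among small leucine-rich proteoglycans the 6 calls became 3 without KO1 or KO2. Among tendon genes the 7 calls became 4 without WT3, KO1, KO2 or KO3.

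Collagen chains had 10 of 34 higher and 1 lower. Over its members the median was 0.34, with 0.56, 0.40 and 0.21 on slides 1, 2 and 3. Col14a1, which sits on the surface of fibrils, was at -1.26, -1.95 and -1.59 in WT and 0.42, 0.45 and 0.33 in KO, 4.00-fold higher (2.0 ± 0.31, adjusted p = 0.00721). Col3a1, a major fibrillar chain and one of the brightest genes of the array, was at 5.77, 5.66 and 5.72 in WT and 6.64, 6.64 and 6.73 in KO, 1.94-fold higher (adjusted p = 0.0120). Elastic fibre and microfibril genes had 4 of 16 higher and 1 lower, and their median was 0.45. Fbn2, the fetal microfibril protein fibrillin 2, was at 2.62, 2.54 and 1.93 in WT and 4.22, 4.49 and 3.70 in KO, 3.43-fold higher (1.78 ± 0.25, adjusted p = 0.00490). Col3a1 lost its call without KO1 (adjusted p = 0.0544). Among collagen chains the 11 calls became 7 without WT1, 4 without WT3 or KO3, 3 without KO2 and 2 without KO1. Among elastic fibre and microfibril genes the 5 calls became 2 without KO2 or KO3 and 1 without WT3 or KO1.

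Matricellular proteins, which modulate cells more than they build fibres, went both ways, with 3 of 27 higher and 5 lower. Egfl6 was at -7.26, -4.89 and -6.88 in WT and -1.79, -1.59 and -1.97 in KO (adjusted p = 0.00323) and above background on 1 of 3 WT arrays. Vit, vitrin, was at -1.55, -0.87 and -3.34 in WT and -5.88, -7.12 and -4.88 in KO (adjusted p = 0.0103) and above background on 2 of 3 KO arrays. Of 17 laminin and basement membrane genes 0 were higher (1 at an unadjusted p under 0.05) and 2 lower. Lamb3, a laminin chain of epithelia, was at least 1.61-fold lower (adjusted p = 0.0103). Epithelial markers also summed lower in KO, and their part in this difference was not tested. Lamb3 lost its call without KO1 (adjusted p = 0.0519). Among matricellular proteins the 8 calls became 5 without WT3 and 3 without KO1, KO2 or KO3. Among laminin and basement membrane genes the 2 calls became 1 without KO1.

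Of 17 matrix metalloproteinases, which cut the matrix, and their inhibitors 0 were called by limma (6 at an unadjusted p under 0.05). The smallest p was that of Mmp19, at 0.43 ± 0.13 (adjusted p = 0.0767). Of 17 integrins, receptors for the matrix, 0 were higher (1 at an unadjusted p under 0.05) and 2 lower. Itga4, an integrin for fibronectin and vascular adhesion molecules, was at -0.97, -0.96 and -0.98 in WT and -2.91, -2.58 and -3.37 in KO, 3.95-fold lower (-1.98 ± 0.20, adjusted p = 0.00170). The WT arrays of Itga4 were almost equal. Cd44, the hyaluronan receptor, was at 3.0, 3.17 and 3.27 in WT and 1.68, 1.57 and 1.80 in KO, 2.76-fold lower (adjusted p = 0.0223), with all 4 of its probes in this direction. Serpina3n, a secreted protease inhibitor, was higher by 1.99 ± 0.23 (adjusted p = 0.00264), and Pcdh8, a protocadherin, was at least 2.38-fold higher (adjusted p = 0.00287). Cd44 lost its call without WT2, WT3, KO1, KO2 or KO3 (adjusted p up to 0.0842). Among integrins the 2 calls became 1 without WT3, KO1, KO2 or KO3.

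**Figure D3:**
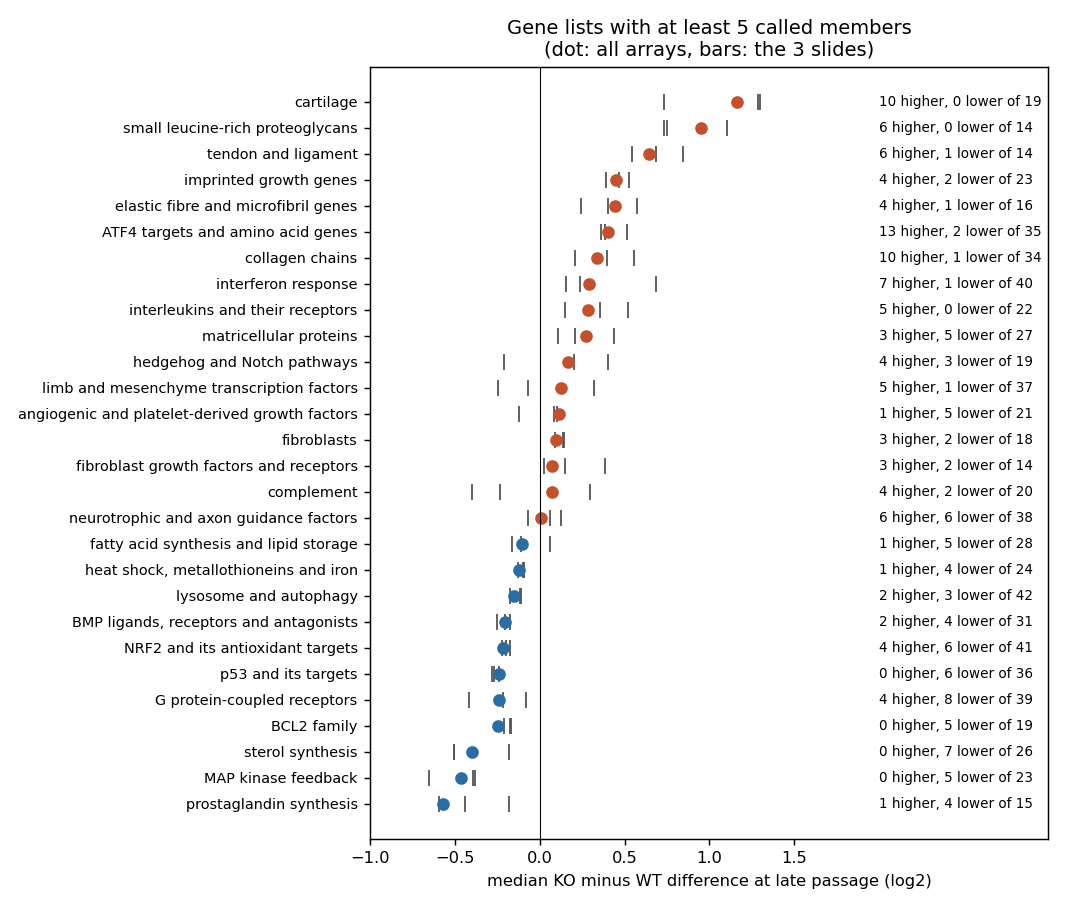
Median KO minus WT difference (log2) of the 28 lists with at least 5 called members, as a dot over all late arrays and as bars within each of the 3 slides. Cartilage, proteoglycan and tendon genes have all 3 slide medians above 0.5, sterol synthesis and MAP kinase feedback genes have all 3 below 0, and complement, hedgehog and Notch, and limb factor lists have slide medians on both sides of 0.

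In the smooth muscle list 23 of 26 differences were negative, with 0 called higher (0 at an unadjusted p under 0.05) and 2 lower. The share called, 7.69%, was near the 7.83% of all genes. The median difference of the list was -0.23, with -0.52, -0.30 and -0.025 on slides 1, 2 and 3. Its 2 calls, Myocd and Des, turned sign under normexp background correction. Myocd, the coactivator that switches on smooth muscle genes, was at least 3.31-fold lower (adjusted p = 0.00436), and Des, desmin, at least 3.64-fold lower (adjusted p = 0.00198). Fhl1, a LIM protein of muscle, was at 0.44, 0.031 and 0.10 in WT and -1.15, -1.26 and -0.95 in KO, 2.49-fold lower (-1.31 ± 0.18, adjusted p = 0.00433). It is from another list, 25 genes responsive to the regulators SRF and YAP. There 0 were higher (0 at an unadjusted p under 0.05) and 2 lower, and the 2 calls became 1 without any 1 of the 6 late arrays. Of 14 skeletal and cardiac muscle genes measured 0 were higher (2 at an unadjusted p under 0.05) and 4 lower, and the median of -0.94 turned to 0.38 under normexp background correction. Tnni1, slow skeletal troponin I, was lower (-1.26 ± 0.16, adjusted p = 0.00372), beside Tnnt2 above. Of 25 muscle markers 9 were above background on all 6 late arrays, Mymk, Acta1 and several troponins among them, and 8 on none, the transcription factors Myod1 and Myog among them.

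Of 32 Hox genes, which mark position along the body axis, 0 were higher (1 at an unadjusted p under 0.05) and 1 lower, and the median was -0.0026. Limb and mesenchyme factors had 5 of 37 higher and 1 lower. Meox1, a homeobox factor of somites, was at -1.66, -1.85 and -1.07 in WT and 0.35, 0.51 and 0.15 in KO, 3.63-fold higher (1.86 ± 0.22, adjusted p = 0.00272). Twist1, a regulator of mesenchymal identity, was higher by 0.75 ± 0.14 (adjusted p = 0.0144), and Msx2, a homeobox factor of limb and skull, lower (-1.11 ± 0.23, adjusted p = 0.0203). Foxs1, a forkhead factor, was at 0.30, 0.29 and -0.23 in WT and -1.43, -1.55 and -1.34 in KO, 2.95-fold lower (adjusted p = 0.00399). Twist1 lost its call without KO1 or KO2 (adjusted p up to 0.0588) and Msx2 without WT1, WT3, KO1, KO2 or KO3 (adjusted p up to 0.0771). Among limb and mesenchyme transcription factors the 6 calls became 3 without KO3 and 1 without KO1 or KO2.

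Imprinted growth genes, many of them active in the embryo and silenced after birth, had 4 of 23 higher and 2 lower. The median of the list was 0.45, with 0.47, 0.52 and 0.39 on slides 1, 2 and 3. Peg3, a zinc finger gene expressed from the paternal copy, was at 0.91, 0.64 and 0.73 in WT and 2.75, 2.85 and 2.60 in KO, 3.93-fold higher (1.97 ± 0.33, adjusted p = 0.00991). Its neighbour Zim1, given above, was higher as well. H19, the long non-coding RNA made from the maternal copy of the Igf2 locus, was at 5.79, 6.53 and 6.28 in WT and 7.23, 7.43 and 7.13 in KO, 2.09-fold higher (adjusted p = 0.0112). H19 lost its call without KO1 or KO2 (adjusted p up to 0.0511). Among imprinted growth genes the 6 calls became 3 without KO3 and 2 without KO1 or KO2.

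Of 24 immediate-early transcription factors 4 were higher and 0 lower (4 at an unadjusted p under 0.05). Nr4a1 was at 3.37, 3.25 and 3.29 in WT and 4.36, 4.47 and 4.20 in KO, 2.05-fold higher (1.04 ± 0.089, adjusted p = 0.000675), and its relative Nr4a2 was at -0.30, -0.65 and -0.53 in WT and 0.36, 0.43 and 0.41 in KO, 1.86-fold higher (adjusted p = 0.00198). In both genes the lowest KO array lay above the highest WT array. Of 23 genes of MAP kinase feedback, the phosphatases and inhibitors that growth factor signalling switches on to damp itself, 0 were higher (0 at an unadjusted p under 0.05) and 5 lower. Over its members the median was -0.47, with -0.65, -0.39 and -0.38 on slides 1, 2 and 3. Dusp4 was at -2.04, -2.38 and -1.67 in WT and -4.30, -4.03 and -4.46 in KO, 4.70-fold lower (-2.23 ± 0.29, adjusted p = 0.00351), and Dusp6 was at 2.73, 2.60 and 2.82 in WT and 2.07, 2.21 and 2.02 in KO, 1.53-fold lower (adjusted p = 0.0222). Dusp6 lost its call without WT1, WT3, KO1, KO2 or KO3 (adjusted p up to 0.0890). Among immediate-early transcription factors the 4 calls became 2 without WT3, KO1, KO2 or KO3. Among MAP kinase feedback genes the 5 calls became 3 without WT1, 2 without WT3 or KO3 and 1 without KO1 or KO2.

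Of 4 lists of calcium genes, 3 had 3 called members each, up to 16.7% of a list, and that of mitochondrial uptake had 0. Plcb1, a phospholipase C that makes inositol trisphosphate, was at -3.12, -2.86 and -2.48 in WT and -1.99, -2.07 and -1.81 in KO, 1.82-fold higher (0.86 ± 0.17, adjusted p = 0.0186). Inpp5a, a phosphatase that removes inositol trisphosphate, was at 2.23, 1.84 and 1.96 in WT and 1.29, 1.23 and 1.39 in KO, 1.63-fold lower (-0.70 ± 0.12, adjusted p = 0.0120). In the list of receptors for inositol trisphosphate and phospholipases C 2 of 18 were called higher and 1 lower, and the median of -0.058 turned to 0.042 after quantile normalization. Trpc6, a calcium-permeable channel of the plasma membrane, was at -6.16, -6.0 and -4.75 in WT and -8.51, -8.20 and -8.51 in KO. Above background on 2 WT and 0 KO arrays, it was at least 1.95-fold lower (adjusted p = 0.00264), in a list of store-operated entry and calcium pumps with 1 of 20 higher and 2 lower. Of 19 genes of mitochondrial calcium uptake 0 were called by limma (8 at an unadjusted p under 0.05). The smallest p there was that of Smdt1, the essential subunit EMRE of the uniporter, which was at 5.02, 4.97 and 5.15 in WT and 4.77, 4.80 and 4.73 in KO (-0.28 ± 0.086, adjusted p = 0.0716). Plcb1 lost its call without KO1, KO2 or KO3 (adjusted p up to 0.0713) and Inpp5a without KO1 or KO2 (adjusted p up to 0.0586). Among inositol trisphosphate receptors and phospholipases C the 3 calls became 1 without KO3 and 0 without KO1 or KO2. Among genes of store-operated entry and pumps the 3 calls became 1 without WT3, KO1, KO2 or KO3.

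Rcan1 and Rcan2, regulators of the calcium-activated phosphatase calcineurin, were lower (-1.19 ± 0.26, adjusted p = 0.0259) and -1.01 ± 0.26 (adjusted p = 0.0406). With Camkk2, a calmodulin-dependent kinase that was higher by 0.57 ± 0.12 (adjusted p = 0.0230), they were the 3 calls among 24 genes of calcineurin, NFAT and calmodulin kinases. Rcan1 lost its call without WT1, WT3, KO1 or KO2 (adjusted p up to 0.0932), Rcan2 without any 1 of the 6 (adjusted p up to 0.133) and Camkk2 without WT3, KO1, KO2 or KO3 (adjusted p up to 0.0845). Among calcineurin, NFAT and calmodulin kinase genes the 3 calls became 1 without WT1 or KO3 and 0 without WT3, KO1 or KO2.

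Of the lists with more than 20 measured genes, that of the amino acid response had the largest share called, 42.9%. ATF4 is a transcription factor made when amino acids run short or the endoplasmic reticulum is stressed, and it switches on amino acid transport and synthesis. Of 35 targets and related genes 13 were higher and 2 lower, and 29 differences were positive. Their median difference was 0.40, with 0.36, 0.51 and 0.38 on slides 1, 2 and 3. Trib3, a pseudokinase that feeds back on ATF4, was at 2.67, 2.58 and 2.67 in WT and 4.31, 4.44 and 4.05 in KO, 3.09-fold higher (1.63 ± 0.14, adjusted p = 0.000806). Slc7a11, the cystine transporter, was at -5.87, -5.95 and -5.44 in WT and -4.32, -4.40 and -4.40 in KO, 2.61-fold higher (1.39 ± 0.17, adjusted p = 0.00289). Slc7a3, a transporter of cationic amino acids, was at -1.39, -1.44 and -1.78 in WT and -0.10, 0.18 and -0.60 in KO, 2.57-fold higher (adjusted p = 0.0127). With Fgf21 above, these 4 had the largest differences of the list, and no KO array overlapped a WT array. Slc7a3 lost its call without KO1 or KO2 (adjusted p up to 0.0616). Among amino acid genes the 15 calls became 9 without WT3, 7 without KO3 and 3 without KO1 or KO2.

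Of 21 aminoacyl-tRNA synthetases 1 was called, Eprs, which charges glutamate and proline, at 0.94, 0.84 and 0.81 in WT and 1.37, 1.40 and 1.31 in KO (0.50 ± 0.078, adjusted p = 0.00762). Among 27 chaperone and unfolded protein response genes of the endoplasmic reticulum 1 was higher and 2 lower. Herpud1, which helps remove misfolded proteins, was higher by 0.43 ± 0.11 (adjusted p = 0.0409), and Atf6, a stress sensor, lower (-0.45 ± 0.11, adjusted p = 0.0394). Herpud1 lost its call without WT2, WT3, KO1, KO2 or KO3 (adjusted p up to 0.135) and Atf6 without WT1, WT3, KO1, KO2 or KO3 (adjusted p up to 0.159). Among chaperone genes the 3 calls became 1 without WT2 and 0 without WT3, KO1, KO2 or KO3.

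**Figure D4:**
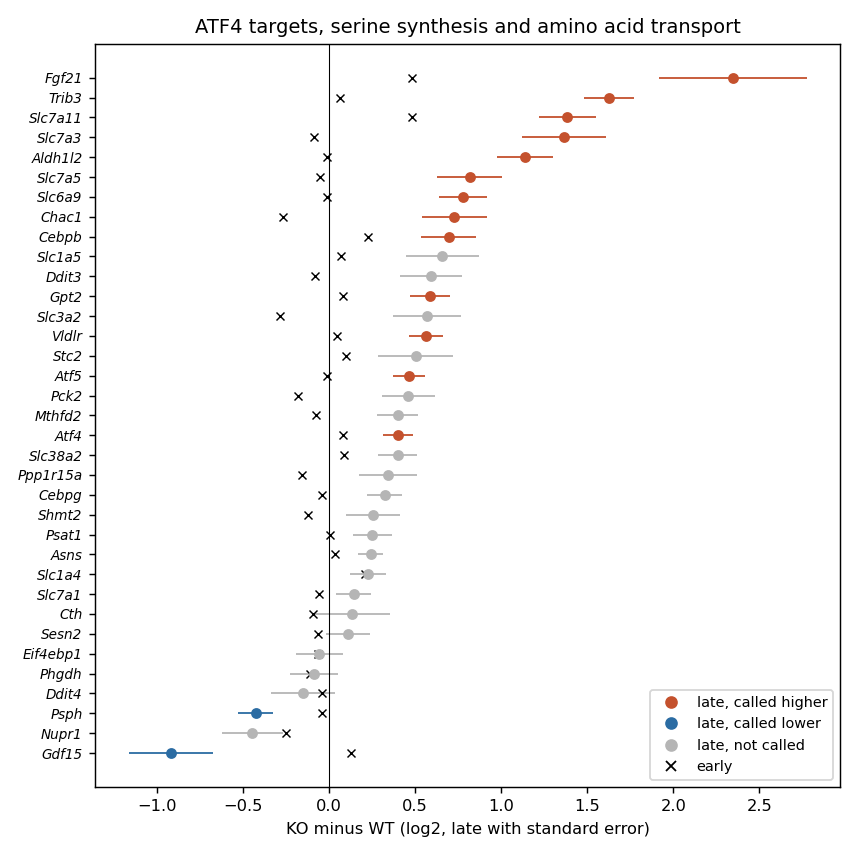
KO minus WT differences (log2) of the 35 measured genes of ATF4 targets, serine synthesis and amino acid transport, at late passage as points with standard errors and at early passage as crosses. The 13 called higher (red) run from Atf4 to Fgf21 and the 2 called lower (blue) are Psph and Gdf15, while the early differences lie between -0.29 and 0.48.

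Promoters of called amino acid and interferon genes were searched for the element each regulator is known to bind, in 250 bases before to 50 after the start in RefSeq (GRCm38.p6). The element TGATGNAAT of amino acid response genes, on either strand, was in 1 of 12 called amino acid genes with a promoter in the table, Fgf21, and in 0.965% of all 32851 promoters. The interferon element, GAAA, any 2 bases and GAAA, was in 3 of 6 called interferon genes, Ifit1, Ifitm3 and Irgm1, and in 3.44% of all promoters. It was in 21 of the 32 interferon list members with a promoter. The sterol element TCACNCCAC was in 0 of 6 called sterol genes and 1.24% of all promoters. The windows below surround the matches, shown in capitals, for the 3 genes with a match before the start.

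Fgf21 promoter, chr7:45615592-45615660, minus strand: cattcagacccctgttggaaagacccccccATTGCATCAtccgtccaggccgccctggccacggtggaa
Ifit1 promoter, chr19:34640755-34640824, plus strand: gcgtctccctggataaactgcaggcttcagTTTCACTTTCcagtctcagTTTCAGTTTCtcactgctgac
Irgm1 promoter, chr11:48871421-48871480, minus strand: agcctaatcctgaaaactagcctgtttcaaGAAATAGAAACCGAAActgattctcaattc

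Interferon response genes had 7 of 40 higher and 1 lower. The median of the list was 0.29, with 0.68, 0.24 and 0.15 on slides 1, 2 and 3. Usp18, a protease that removes the ubiquitin-like protein ISG15, was at -3.91, -3.61 and -3.69 in WT and -2.15, -1.88 and -2.37 in KO, 3.04-fold higher in KO (1.60 ± 0.26, adjusted p = 0.00862). Ifit1, an RNA-binding antiviral protein with 2 matches in its promoter above, was at -5.11, -4.34 and -4.32 in WT and -2.94, -2.73 and -3.36 in KO, 2.98-fold higher (adjusted p = 0.0276). The 1 lower gene was Irgm1, an immunity-related GTPase chosen for its promoter after its values were seen, at 2.32, 2.22 and 2.29 in WT and 1.43, 1.32 and 1.73 in KO (adjusted p = 0.0218). Ifit1 and Irgm1 thus both carry the element and went in opposite directions. Ifit1 lost its call without WT1, WT3, KO1, KO2 or KO3 (adjusted p up to 0.102) and Irgm1 without WT1, WT3, KO1 or KO2 (adjusted p up to 0.0887). Among interferon response genes the 8 calls became 4 without WT1 or KO3, 3 without WT3 and 1 without KO1 or KO2.

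Complement genes, which fibroblasts secrete, had 4 of 20 higher and 2 lower. C1ra, a protease that starts the classical pathway, was at 0.56, 0.93 and 0.77 in WT and 2.18, 2.17 and 2.15 in KO, 2.66-fold higher (adjusted p = 0.00465). Its partner C1s1 was at -0.033, 0.17 and 0.23 in WT and 1.27, 1.26 and 1.26 in KO, 2.21-fold higher (adjusted p = 0.00906). C4b, given above, is cleaved by them and was higher too. C2, another component and also a macrophage product, was lower (-1.51 ± 0.39, adjusted p = 0.0451). Lcn2, a protein that captures bacterial iron carriers, was higher by 1.15 ± 0.18 (adjusted p = 0.00734). Antigen presentation genes had 0 of 22 called by limma (3 at an unadjusted p under 0.05). C2 lost its call without WT2, WT3, KO1, KO2 or KO3 (adjusted p up to 0.131). Among complement genes the 6 calls became 3 without KO1 or KO3.

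Where called, sterol synthesis genes were lower in KO. Of 26 measured 0 were higher (0 at an unadjusted p under 0.05) and 7 lower, and 24 differences were negative. Over its members the median was -0.40, with -0.51, -0.51 and -0.18 on slides 1, 2 and 3. Msmo1, which oxidises methyl sterols, was at 3.92, 3.92 and 3.65 in WT and 2.98, 2.88 and 3.1 in KO, 1.79-fold lower (-0.84 ± 0.15, adjusted p = 0.0133). Nsdhl, which acts next to it, was at -0.74, -0.62 and -0.70 in WT and -1.45, -1.57 and -1.31 in KO, 1.68-fold lower (adjusted p = 0.0150). Scd1, the desaturase of saturated fatty acids, is from another list, fatty acid synthesis and lipid storage, with 1 of 28 higher and 5 lower. Scd1 was at 0.011, -0.029 and -0.016 in WT and -0.83, -1.08 and -0.56 in KO, 1.76-fold lower (adjusted p = 0.0219). The KO arrays of all 3 lay below the WT arrays. Msmo1 lost its call without KO1 or KO2 (adjusted p up to 0.0620), Nsdhl without KO1 or KO2 (adjusted p up to 0.0669) and Scd1 without WT3, KO1 or KO2 (adjusted p up to 0.0842). Among sterol synthesis genes the 7 calls became 4 without KO3 and 1 without KO1 or KO2. Among fatty acid and lipid storage genes the 6 calls became 3 without WT1 and 2 without WT3, KO1 or KO2.

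Lysosomal and prostaglandin genes included decreases in genes that macrophages also make. Calls among 42 lysosome and autophagy genes went both ways, with 2 higher and 3 lower and a median of -0.15. These 5 calls became 2 without WT2, WT3 or KO2 and 1 without KO1 or KO3. Gpnmb, a glycoprotein of lysosomes, was at 0.49, 1.29 and 1.60 in WT and -1.20, -0.89 and -1.53 in KO, 5.04-fold lower (-2.33 ± 0.33, adjusted p = 0.00499), and Ctsk, the collagen-degrading protease cathepsin K, was at 0.46, 0.58 and 1.41 in WT and -0.60, -0.33 and -0.83 in KO, 2.64-fold lower (adjusted p = 0.0155). Ptgs1, cyclooxygenase 1, was at 0.053, 0.64 and 0.91 in WT and -1.23, -0.87 and -1.78 in KO, 3.56-fold lower (adjusted p = 0.0112), in a list with 1 of 15 higher and 4 lower. Macrophage markers had 0 of 23 higher (0 at an unadjusted p under 0.05) and 2 lower (20 at an unadjusted p under 0.05), and a median difference of -1.12. Over all 19507 genes, 4864 had an unadjusted p under 0.05 in either direction. On slides 1 to 3 that median was -0.56, -0.74 and -2.08. The KO array lowest in Gpnmb, Ctsk and Ptgs1, KO3, was also lowest in summed macrophage markers, at 6.01. Their part in these results was not tested. Ctsk lost its call without KO1 or KO3 (adjusted p up to 0.0669) and Ptgs1 without KO1 (adjusted p = 0.05002). Among prostaglandin synthesis genes the 5 calls became 2 without WT3, 1 without KO2 or KO3 and 0 without KO1. Among macrophage markers the 2 calls became 4 without WT1, 1 without KO2 and 0 without WT2, WT3, KO1 or KO3.

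Of 41 antioxidant genes controlled by NRF2 4 were called higher and 6 lower, and their median was -0.21. Slc7a11, which belongs to this list too, was the largest increase and Gsta3, a glutathione transferase, the largest decrease at -1.24 ± 0.30 (adjusted p = 0.0336). Respiratory chain and ATP synthase subunits had 41 of 43 differences below 0 but 0 called by limma (6 at an unadjusted p under 0.05), with a median of -0.17. Cytosolic ribosomal proteins had 48 of 49 above 0 and 0 called (1 at an unadjusted p under 0.05), with a median of 0.11 that turned to -0.081 under normexp background correction. In glycolysis 1 of 25 was called, Pfkfb4, a regulator of the pathway, at -0.63 ± 0.12 (adjusted p = 0.0177). Gsta3 lost its call without WT1, WT2, WT3, KO1 or KO3 (adjusted p up to 0.123) and Pfkfb4 without WT3, KO1 or KO3 (adjusted p up to 0.0711). Among NRF2 and its antioxidant targets the 10 calls became 4 without WT2, 3 without KO2, 2 without WT3 or KO3 and 1 without KO1.

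Genes of cell death and of p53 were lower where called. Of 36 genes of p53 and its targets 0 were higher (1 at an unadjusted p under 0.05) and 6 lower. Their median difference was -0.24, with -0.28, -0.24 and -0.27 on slides 1, 2 and 3. Dyrk3, a kinase, was at -2.18, -2.44 and -1.89 in WT and -3.72, -3.76 and -3.63 in KO, 2.89-fold lower (adjusted p = 0.00662). Pmaip1, the death-promoting protein Noxa, was at 2.88, 2.32 and 2.55 in WT and 1.31, 1.23 and 1.37 in KO, 2.43-fold lower (-1.28 ± 0.20, adjusted p = 0.00855). Cdkn1a, the cell cycle inhibitor p21, was at 3.58, 3.49 and 3.73 in WT and 2.93, 3.06 and 2.83 in KO, 1.58-fold lower (adjusted p = 0.0224). The BCL2 family, which sets the threshold of cell death, had 0 of 19 higher (1 at an unadjusted p under 0.05) and 5 lower. Its called members included Bik, a death-promoting member that was at least 1.99-fold lower (adjusted p = 0.00688). They also included Bcl2l1, the survival protein Bcl-xL, at -0.56 ± 0.11 (adjusted p = 0.0154). Cdkn1a lost its call without WT3, KO1, KO2 or KO3 (adjusted p up to 0.0873) and Bcl2l1 without WT3, KO1, KO2 or KO3 (adjusted p up to 0.0640). Among p53 genes the 6 calls became 3 without WT3 or KO3 and 2 without KO1 or KO2. Among BCL2 family members the 5 calls became 2 without KO1.

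Of 43 DNA replication genes 0 were called by limma (12 at an unadjusted p under 0.05), and 34 differences were negative. The median of the list was -0.13, with -0.20, -0.27 and 0.03 on slides 1, 2 and 3. Of 40 genes of G2 and mitosis 1 was lower, Ccnf, cyclin F, at -0.45 ± 0.09 (adjusted p = 0.0183). Among 8 cyclin-dependent kinase inhibitors Cdkn2c, p18, was higher by 0.63 ± 0.15 (adjusted p = 0.0359) and Cdkn1a lower. Hmga1, a chromatin protein of growing and of senescent cells, was at 5.36, 5.55 and 5.67 in WT and 3.96, 3.90 and 4.07 in KO, 2.93-fold lower (-1.55 ± 0.34, adjusted p = 0.0256), with all 3 of its probes in this direction. It was the 1 call among 28 lamina, HMGB and shelterin genes. Ccnf lost its call without KO1 or KO2 (adjusted p up to 0.0771), Cdkn2c without KO1, KO2 or KO3 (adjusted p up to 0.120) and Hmga1 without WT2, WT3, KO1, KO2 or KO3 (adjusted p up to 0.0921).

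Set beside early passage, most leading genes lay near 0 there. Xist was above background on replicate 1 of WT at both passages. In KO it was so on KO1 and KO2 at late passage and on no early array. The KO early arrays read -7.01, -7.63 and -8.12. Differences between the passages cannot be told apart from this change of the KO arrays. Whether same-numbered KO arrays of both passages hold cells of the same embryos was not tested. At early passage 7 genes (0.0359%) were called between the genotypes, and 6 of the 1527 late calls were among them in the same direction. Dera differed by 1.14 at early and 1.14 at late passage. Pbp2 was above background on 3 WT and 0 KO arrays at both passages, so its measured differences of -3.53 and -5.70 are no estimates of size. The difference between the passages was called for 17 genes (0.0871%), which became 42 without WT1, 32 without WT2, 8 without KO3 and 1 without KO1 or KO2. With the replicate number as a block it was called for 4. It was -2.96 ± 0.26 for Tnnt2, with early and late differences of 0.46 and -2.49 (adjusted p = 0.00606), and -2.08 ± 0.27 for Nes, with -0.25 and -2.33 (adjusted p = 0.0212). In the other direction it was 1.55 ± 0.23 for Fxyd6 (adjusted p = 0.0449) and 1.04 ± 0.13 for Nr4a1 (adjusted p = 0.0210). It was also called for Chrdl2 (adjusted p = 0.0109), which was above background on the KO late arrays alone, so no size is given. For Slpi, with 0.94 at early and 4.37 at late passage, the difference between passages missed the threshold (adjusted p = 0.0849), as it did for Lum (adjusted p = 0.112) and Nppb (adjusted p = 0.0626).

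**Figure D5:**
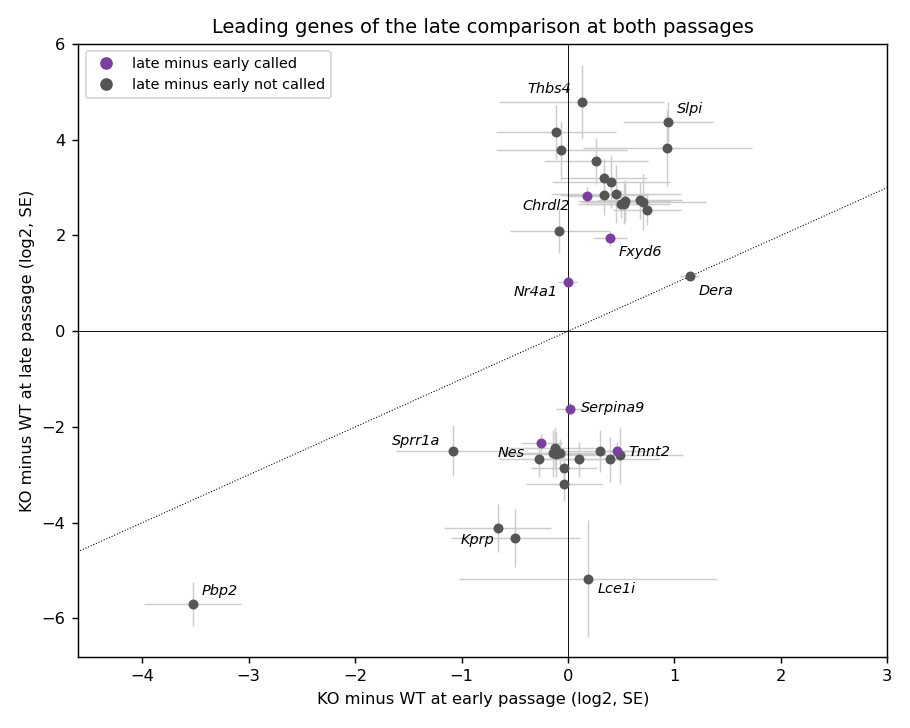
KO minus WT differences (log2) at early passage on the horizontal and at late passage on the vertical axis for the 40 leading genes, with standard errors and a dotted line of equal difference. Dera lies on the line and Pbp2 is low at both passages, while most other genes lie within 1 unit of 0 at early passage. Genes at background in a group, such as Pbp2 and Chrdl2, are drawn at their measured values. The 6 purple genes are those whose difference between passages was called.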

How the data were processed

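Transcript levels of 12 cultures were read on one-colour arrays. Per the file headers, the deposited intensity of each spot had been background-subtracted and freed of trends across the array by Agilent Feature Extraction (11.5.1.1, against 10.7.3.1 in the submitters' processing notes), with no scaling between arrays. The authors' deposited table holds log2 values for part of the probes, scaled and centred per probe, and was used only as an alternative. Spot calls above background were, per the file headers, 0 or 1 scores of that software.

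From the 43020 spots of an array, outlier spots were left out and the rest averaged over 39429 probes. Each array's 75th percentile was then subtracted on the log2 scale. A probe was kept if some group had it above background on each of its 3 arrays (24466, less 107 with an outlier spot), and the brightest stood for its gene. This gave 19507 genes, 14577 with a symbol. Of 28290 RefSeq accessions 27969 matched the gene table of GRCm38.p6. The 75th percentile of intensity of the late arrays ran from 688.4 to 902.5.

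The test was limma 3.58.1 (R 4.3.3) on 4 group means over 12 arrays, with 2.22 prior and 8 residual degrees of freedom. Benjamini-Hochberg adjustment ran over all genes, and an adjusted p under 0.05 was called. An exact permutation of 3 against 3 arrays cannot go below a two-sided p of 0.1. A gene above background on 3 arrays of 1 late group and 0 of the other is given as "at least" a fold against the lowest signal above background. Such a bound holds for the main background correction only. The test was checked on simulated data.

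Genes were named by rule: the 12 largest differences in each direction with groups that do not overlap, above background on all late arrays; the 5 largest bounds in each direction; the 8 smallest p; up to 4 called members of each list, or the member with the smallest p; Itpr1 to Itpr3, Xist and Ddx3y. Not all of them are given. The comparison, the lists and the rule were chosen with earlier results of these data known. Alternatives were other scalings, background corrections, filters, probe rules, fits and arrays left out. The replicate number is also the slide, and each slide holds 1 array of each group. Same-numbered WT late and KO late arrays did not deviate together (correlations of -0.053, 0.089 and 0.032), so the numbers were not taken to pair them. Between passages they did in WT (0.279, 0.244 and 0.142) and not in KO (-0.092 to 0.079), so the block is given beside the difference between passages.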

Additional observations from a re-analysis of the deposited data

Results flagged for a closer look

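The difference between the genotypes differed between the passages for 6 of the leading genes by a test of that difference in the limma model. Late minus early, it was -2.96 for Tnnt2, -2.08 for Nes and -1.63 for Serpina9, whose late differences were negative. It was 2.65 for Chrdl2, 1.55 for Fxyd6 and 1.04 for Nr4a1, whose late differences were positive. Chrdl2 was above background on the KO late arrays alone, so its values here, from probes at background in the other 3 groups, are no estimates of size. At early passage the differences were 0.46, -0.25, 0.016, 0.18, 0.40 and -0.0019 in the same order. Such calls over all genes numbered 17, and 1 without KO1 or without KO2. KO1 and KO2 carried Xist and no KO early array did, so differences between passages cannot be told apart from this change of the KO arrays.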

How the results depend on the processing

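Counts of called genes (1527, of which 674 higher and 853 lower) were within 1.5 times after quantile normalization, normexp with quantile normalization (added after seeing the data), averaging a gene's probes, the replicate block, Xist as a covariate and in the authors' value table. The genes called were not all the same. In that order, 1381, 1175, 1424, 1226, 1080 and 1322 of the 1527 were called again, the last among 17291 genes tested. With normexp background correction they were 15 (12 and 3), with no filter on dim probes 615 (259 and 356), with array weights per group 3097 (1410 and 1687), and with the 6 late arrays alone 1020 were higher. With single late arrays left out they ran from 255 to 1153 (117 to 550 higher and 138 to 732 lower), and without both KO late arrays with Xist they were 1 (1 and 0, with 2128 at an unadjusted p under 0.05). The replicate block gave 1408 calls. The 17 calls of late minus early became 0 with normexp, 3 with no filter, 4 with the replicate block, 11 with Xist as a covariate, 9 in the authors' table, 0 without both KO late arrays with Xist, and 1 to 42 with single arrays left out. The sign of the difference turned only with normexp background correction, to 0.15 for Ppp2r2c, 0.26 for Serpina9, 0.57 for Trpc6, 0.16 for Fgf1, 0.18 for Fgf2, 0.41 for Lef1, 0.17 for Ntn4, 0.49 for Ret, 0.47 for Lamb3, 0.37 for Des, 0.45 for Myocd, 0.30 for Tnni1, 0.011 for Aldh1a3, 0.54 for Bik, 0.013 for Atf6, 0.34 for Gsta3 and 0.37 for Bhlhe41. The cause was not tested. Of 139 called genes given in the text, 71 lost the call without at least 1 late array and 68 kept it without any 1. Dim genes are limited by signal over background.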

Other observations

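Several lists outside the account above had called members. In a list of 24 Wnt genes 3 were higher and 1 lower. It holds ligands, secreted modulators and also intracellular members of the pathway such as Nkd1 and Lef1. Nkd1, a feedback inhibitor of Wnt signalling like Axin2, was at -0.47, -0.63 and -0.56 in WT and 0.95, 1.04 and 0.86 in KO (2.83-fold higher, limma adjusted p = 0.0145), while Lef1, a transcription factor at the end of the same pathway, was lower (-1.84 ± 0.46, adjusted p = 0.0381). Among 31 innate sensors and NF-kB genes 2 were higher and 2 lower. Tlr2, a receptor for bacterial lipoproteins, was at 0.047, 0.27 and 0.18 in WT and -0.53, -0.49 and -0.55 in KO (adjusted p = 0.0116), and Tnfaip3, an inhibitor of NF-kB, at -0.68, -0.54 and -0.12 in WT and -1.57, -1.64 and -1.44 in KO (adjusted p = 0.0155). Both lay lower on every KO array. Nkd1 lost its call without KO1 or KO2 (adjusted p up to 0.0641), Lef1 without WT2, WT3, KO1, KO2 or KO3 (adjusted p up to 0.125) and Tlr2 without KO1 (adjusted p = 0.0578). Tnfaip3 lost its call without WT3, KO1 or KO2 (adjusted p up to 0.0669). Among the listed Wnt genes the 4 calls became 2 without WT3 or KO3 and 1 without KO1 or KO2. Among innate sensors and NF-kB genes the 4 calls became 7 without WT1, 2 without WT3 or KO2 and 1 without KO1.

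Of 16 circadian clock genes 3 were higher and 1 lower. Bhlhe40, a clock repressor, was at -0.64, -0.98 and -0.72 in WT and -0.081, -0.14 and -0.045 in KO (0.69 ± 0.13, adjusted p = 0.0162), and its close relative Bhlhe41 differed by -1.55 ± 0.37 (adjusted p = 0.0337). The pair of repressors was thus called in opposite directions. Of 22 hypoxia responsive genes 2 were higher and 2 lower. Hif1a, the oxygen-regulated transcription factor, was at 1.75, 1.21 and 1.55 in WT and 2.37, 2.12 and 2.51 in KO (0.83 ± 0.16, adjusted p = 0.0179), and Adm, the vasodilator adrenomedullin, was at 1.87, 1.99 and 1.22 in WT and 0.47, 0.52 and 0.37 in KO (adjusted p = 0.0220). Bhlhe40 lost its call without KO1, KO2 or KO3 (adjusted p up to 0.0696), Bhlhe41 without WT3, KO1, KO2 or KO3 (adjusted p up to 0.129) and Hif1a without KO1 or KO3 (adjusted p up to 0.0771). Adm lost its call without WT1, WT2, KO1, KO2 or KO3 (adjusted p up to 0.0813). Among clock genes the 4 calls became 1 without WT3 and 0 without KO1, KO2 or KO3. Among hypoxia responsive genes the 4 calls became 2 without WT1 or WT2, 1 without KO2 and 0 without KO1 or KO3.

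Of 29 retinoic acid and nuclear receptor genes 1 was higher and 2 lower. Aldh1a3, which makes retinoic acid, was at -4.89, -4.16 and -2.82 in WT and -5.95, -6.56 and -5.96 in KO (-2.20 ± 0.41, adjusted p = 0.0150), and Nr2f1, a nuclear receptor of embryonic tissues, was at 1.91, 2.22 and 2.21 in WT and 2.87, 3.05 and 2.79 in KO (0.79 ± 0.15, adjusted p = 0.0146). Of 26 replication-dependent histone genes, whose near-identical copies can share probes, 0 were higher (2 at an unadjusted p under 0.05) and 4 lower. H3c7 was at -1.63, -1.85 and -1.70 in WT and -2.36, -2.31 and -2.32 in KO (adjusted p = 0.0124). Vcan, the large proteoglycan versican, was at -0.17, 0.74 and 0.82 in WT and 1.73, 1.71 and 1.66 in KO (1.24 ± 0.27, adjusted p = 0.0236), in a list with 3 of 23 higher and 1 lower. Aldh1a3 lost its call without KO1 or KO2 (adjusted p up to 0.0616), Nr2f1 without KO1 or KO2 (adjusted p up to 0.0620) and H3c7 without KO1 (adjusted p = 0.0644). Vcan lost its call without KO1, KO2 or KO3 (adjusted p up to 0.0887). Among retinoic acid and nuclear receptor genes the 3 calls became 5 without WT1 and 0 without KO1 or KO2. Among replication-dependent histones the 4 calls became 2 without WT1 or KO3, 1 without KO2 and 0 without KO1. Among hyaluronan and large proteoglycan genes the 4 calls became 2 without WT3 and 1 without KO1, KO2 or KO3.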
